A study of Mus musculus with 9 samples.

Results

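Splicing factor kinases are the enzymes that phosphorylate the proteins of the splicing machinery, and 10 of their genes were followed in mouse lung organoids: Srpk1, Srpk2, Srpk3, Clk1, Clk2, Clk3, Clk4, Dyrk1a, Dyrk1b and Prpf4b. They were chosen by symbol, and each was matched to 1 of the 57010 Ensembl gene identifiers of each of the authors' deposited tables. RNA had been sequenced from 9 libraries in 3 groups of 3: SCLC organoids treated with an agent that the labels name only as GSK (GSK), small cell lung cancer organoids (SCLC), and organoids of normal lung (Normal). The labels used give no strain, genotype, tumour model, dose or time, and do not say whether replicates were separate cultures, so p-values measure only the spread between these libraries. The series title concerns alternative RNA splicing and immune escape in this cancer.

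SR proteins carry long runs of arginine and serine, and the phosphates on these serines decide whether an SR protein enters the nucleus, waits in a nuclear speckle or takes part in splicing. SRPK kinases act largely in the cytoplasm and prepare SR proteins for nuclear import. CLK kinases act in the nucleus, add further phosphates and release SR proteins from speckles. DYRK1A and DYRK1B belong to a related family with targets in splicing and the cell cycle, and PRPF4B phosphorylates proteins of the tri-snRNP, the particle that completes the spliceosome. In human and mouse cells, transcripts of the CLK genes are known to be held in the nucleus with introns unspliced until the cell needs them.

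The tables hold the authors' comparisons and no value for a single library. Each value below is therefore a group mean in normalized counts, worked out from each gene's overall mean and fold change, or the authors' log2 fold change ± their standard error. A gene is called changed when the authors' adjusted p was under 0.05. Intervals are 95% normal intervals from those standard errors. The summed normalized counts per library averaged 43400000 in the table of SCLC against Normal and 38600000 in that of GSK against SCLC. The implied sums were 42000000 for SCLC and 44700000 for Normal in the first table, and 31900000 for GSK and 45300000 for SCLC in the second.

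Markers of other cells differed strongly between the groups. The 5 immune markers summed to 17846 normalized counts in GSK and 55.9 in SCLC, and all 5 rose in the authors' deposited table. In SCLC, Ptprc, Adgre1, Itgam and Cd3e of this list were under a mean of 1. All 3 endothelial markers rose too, with sums of 11666 in GSK and 43.0 in SCLC, as did all 5 fibroblast markers, with 13885 in GSK and 25.6 in SCLC. The authors' deposited table gave 5 of 8 neuroendocrine markers lower and 1 higher, and their sums were 70391 in GSK and 162649 in SCLC. In the first table the neuroendocrine sum was 150678 in SCLC and 93.5 in Normal, and the 6 alveolar type II markers summed to 4681 in SCLC and 2965150 in Normal. Also lower in SCLC were all 4 alveolar type I markers (sums of 1503 in SCLC and 312492 in Normal), all 5 fibroblast markers (23.7 in SCLC and 9060 in Normal) and all 4 immune markers tested (51.8 in SCLC and 1395 in Normal for the list). All 4 proliferation markers were higher, with 74632 in SCLC and 7850 in Normal. The ciliated, club and basal marker sums were 3039, 6298 and 352 in GSK, against 558, 213 and 0.22 in SCLC. The 4 proliferation markers summed to 78021 in GSK and 80549 in SCLC, with 1 of them called higher and 1 lower. The labels give GSK and SCLC the same tissue. In such bulk RNA, fewer cells of a type and less RNA per cell cannot be told apart, and the part of these cells in the kinase results was not tested.

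Promoter sequences are shown for Srpk1, Srpk3, Clk4 and Prpf4b, the changed kinase genes with exactly 1 entry in the promoter table, to let the start regions of kinases that rose or fell be compared. Each runs 5′ to 3′ on the gene's strand, from 250 bases before the start to 50 after it, from RefSeq on GRCm38.p6. Capitals mark matches on either strand to 7 motifs, chosen with the values known: the cAMP response element TGACGTCA, the ETS site CCGGAAG, the GC box GGGCGG, the CCAAT box, the TATA box TATAAA, the E-box CACGTG and the NRF1 core GCATGCGC.
Srpk1 (chr17:28622472-28622771, minus strand): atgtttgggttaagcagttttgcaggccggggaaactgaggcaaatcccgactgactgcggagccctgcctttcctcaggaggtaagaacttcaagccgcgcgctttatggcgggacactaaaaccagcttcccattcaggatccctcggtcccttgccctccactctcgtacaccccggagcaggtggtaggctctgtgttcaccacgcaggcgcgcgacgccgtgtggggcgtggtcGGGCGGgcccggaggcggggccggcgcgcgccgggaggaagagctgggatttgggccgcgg
Srpk3 (chrX:73774155-73774454, plus strand): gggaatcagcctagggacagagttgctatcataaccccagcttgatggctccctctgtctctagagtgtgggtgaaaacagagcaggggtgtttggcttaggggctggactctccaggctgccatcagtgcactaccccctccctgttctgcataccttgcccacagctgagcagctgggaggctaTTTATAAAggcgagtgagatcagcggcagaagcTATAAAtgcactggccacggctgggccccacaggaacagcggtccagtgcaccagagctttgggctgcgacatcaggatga
Clk4 (chr11:51262864-51263163, plus strand): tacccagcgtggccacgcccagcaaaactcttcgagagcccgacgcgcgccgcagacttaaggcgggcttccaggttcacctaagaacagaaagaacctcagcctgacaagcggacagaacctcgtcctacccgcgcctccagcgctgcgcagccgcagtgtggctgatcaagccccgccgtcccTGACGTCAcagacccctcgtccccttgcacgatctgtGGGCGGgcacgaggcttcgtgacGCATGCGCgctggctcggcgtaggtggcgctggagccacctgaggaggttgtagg
Prpf4b (chr13:34875279-34875578, plus strand): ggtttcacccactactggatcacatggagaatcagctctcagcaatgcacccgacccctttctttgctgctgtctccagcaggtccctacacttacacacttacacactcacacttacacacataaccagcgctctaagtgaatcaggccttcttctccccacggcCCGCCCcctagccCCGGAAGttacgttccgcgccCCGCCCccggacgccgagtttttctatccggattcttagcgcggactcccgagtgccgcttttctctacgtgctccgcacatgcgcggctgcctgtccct

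The Clk4 promoter held a cAMP response element from 65 to 58 bases before the start, a motif found in 1.79% of 32851 promoters of the same length. It also held a GC box, found in 35.7% of them, and an NRF1 core across the start, found in 2.71%. Prpf4b had 2 GC boxes and an ETS site (8.86% of promoters), and Srpk1 had 1 GC box. Srpk3 had TATA boxes at 3 positions, of which 2 overlap each other (13.6% of promoters), and no GC box match in this window. CCAAT and the E-box, found in 37.4% and 7.15% of promoters, were in none of these 4 windows. The windows of Srpk1 and Clk4 were 65.0% and 65.3% G and C with 28 and 30 CpG pairs, against 56.7% and 5 CpG pairs for Srpk3 and a median of 52.7% and 7 over all promoters. These matches are letters in a window and say nothing of which factor binds there. Clk1 is not shown.

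The first comparison set SCLC organoids against Normal organoids. In the authors' deposited table, the kinases higher in SCLC were Dyrk1a and Srpk1, and those lower were Prpf4b, Srpk2, Clk4 and Clk1. Clk1 and Srpk1 had the largest fold changes of the 10. Of the 10 kinases, 2 rose and 4 fell, while over all tested genes 25.3% rose, 25.1% fell and 50.4% were called either way. Abundance matters for that share: among the 9680 genes averaging 500 or more, a class that holds every kinase but Srpk3, 38.0% rose, 28.6% fell and 66.7% were called. The kinases' 6 calls of 10 thus lie near the background. The median log2 fold change of the 10 kinases was -0.32, against 0.10 over all tested genes and 0.18 over genes averaging 100 or more.

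The SRPK genes moved apart. Srpk1, whose protein is the main cytoplasmic kinase of SR proteins, averaged 5336 normalized counts in SCLC and 1643 in Normal. It was 3.25-fold higher in SCLC (log2 fold change 1.70 ± 0.22, adjusted p = 2.83e-13, from the authors' deposited table). Srpk2, its paralog with high expression in the nervous system, averaged 1921 in SCLC and 3465 in Normal, and its log2 fold change was -0.85 ± 0.29 (adjusted p = 0.00727, from the authors' deposited table). After the trend of fold changes over transcript length and GC content was removed, Srpk2 no longer passed (-0.60, adjusted p = 0.0706). Srpk3, a kinase known from muscle, was the lowest of the set, at 35.7 in SCLC and 17.1 in Normal. Its interval in the authors' deposited table ran from -0.18 to 2.31 (adjusted p = 0.153), which allows a wide range of differences.

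Scaled to the length of the longest coding transcript, Srpk1 made up 78.5% of the summed SRPK level in SCLC and 39.4% in Normal, and Srpk2 made up 20.3% in SCLC and 59.6% in Normal. Srpk1 had the highest level per kb of all 10 kinases in SCLC (1147 normalized counts per kb) and the ninth in Normal (353). These shares and levels carry no error of their own, since no library values were used. They also depend on the length used, and no other length was tried.

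All 4 CLK genes had negative fold changes, and 2 of them passed. Clk1, a nuclear kinase that phosphorylates SR proteins and itself, averaged 1642 normalized counts in SCLC and 6436 in Normal, with a log2 fold change of -1.97 ± 0.27 (adjusted p = 2.71e-12, from the authors' deposited table). Clk4, its closest paralog, averaged 1138 in SCLC and 2217 in Normal, with -0.96 ± 0.25 (adjusted p = 0.000354, from the authors' deposited table). Clk2, another nuclear kinase of SR proteins, averaged 1430 in SCLC and 2221 in Normal, and its interval in the authors' deposited table, -1.28 to 0.02, reached just past no difference (adjusted p = 0.0995). Clk2 passed as lower when centred on the median (-0.82, adjusted p = 0.0294) and with the length and GC trend removed (-0.80, adjusted p = 0.0328; -0.84, adjusted p = 0.0244 for coding transcripts). Clk3, a kinase known from testis and sperm, averaged 2241 in SCLC and 2397 in Normal, with an interval of -0.72 to 0.52 (adjusted p = 0.821, from the authors' deposited table). Clk1 thus differed most within the family, while Clk3 showed no detectable difference.

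Per kb, Clk1 was the most abundant of the 10 kinases in Normal, at 3584 normalized counts per kb, and had 914 in SCLC. The coding length used for Clk1 was 1796 bases, while its longest transcript of any kind has 4865. Its ranks and shares per kb therefore rest on the length chosen. It made up 29.9% of the summed CLK level in SCLC and 53.4% in Normal, and Clk3 made up 29.3% in SCLC and 14.3% in Normal. The 4 CLK genes together held 51.8% of the summed level per kb of the 10 kinases in SCLC and 74.7% in Normal.

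The remaining kinases differed less. Dyrk1a, a dosage-sensitive kinase of brain development that also promotes assembly of the cell cycle repressor complex DREAM, averaged 3586 normalized counts in SCLC and 2379 in Normal (0.59 ± 0.21, adjusted p = 0.011, from the authors' deposited table). That call ended when the authors' fold changes were centred on the median of abundant genes (0.41, adjusted p = 0.0906). Dyrk1b, a kinase linked to quiescence in muscle and tumour cells, averaged 981 in SCLC and 1093 in Normal (interval -0.80 to 0.49, adjusted p = 0.718, from the authors' deposited table). With the length and GC trend removed it passed, at -0.98 (adjusted p = 0.00651). Prpf4b averaged 2986 in SCLC and 4185 in Normal, with -0.49 ± 0.21 (adjusted p = 0.0394, from the authors' deposited table). The Prpf4b call ended with scaling to equal totals (-0.40, adjusted p = 0.10), with no filter on low means (adjusted p = 0.0534) and with the length and GC trend removed (-0.27, adjusted p = 0.275).

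The second comparison set GSK organoids against SCLC organoids. In the authors' deposited table, the kinases higher in GSK were Prpf4b, Srpk3, Clk4 and Clk1, and Dyrk1b was lower. Of the 10 kinases, 4 rose and 1 fell, while over all tested genes 21.6% rose, 15.5% fell and 37.1% were called either way. Scaling to equal totals changed the split over all genes to 8738 higher and 1970 lower, and centring on the median to 7242 and 3077, against 6129 and 4404 as deposited. Among the 9806 genes averaging 500 or more, 13.7% rose, 33.7% fell and 47.5% were called, and that class holds all the kinases but Srpk3. The other 5 of the 10 kinases did not pass, so the share of kinases called either way lies near this background. The fold changes of Clk1, Clk4 and Prpf4b were above those of 92.7%, 89.3% and 89.1% of these abundant genes, and that of Dyrk1b was above 2.67% of them. Clk2, Dyrk1a, Srpk1, Clk3 and Srpk2, which did not pass, were above 85.4%, 73.5%, 67.3%, 67.2% and 61.0% of them. The median log2 fold change of the kinases was 0.45, against 0.24 over all tested genes and -0.25 over genes averaging 100 or more.

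**Figure D1:**
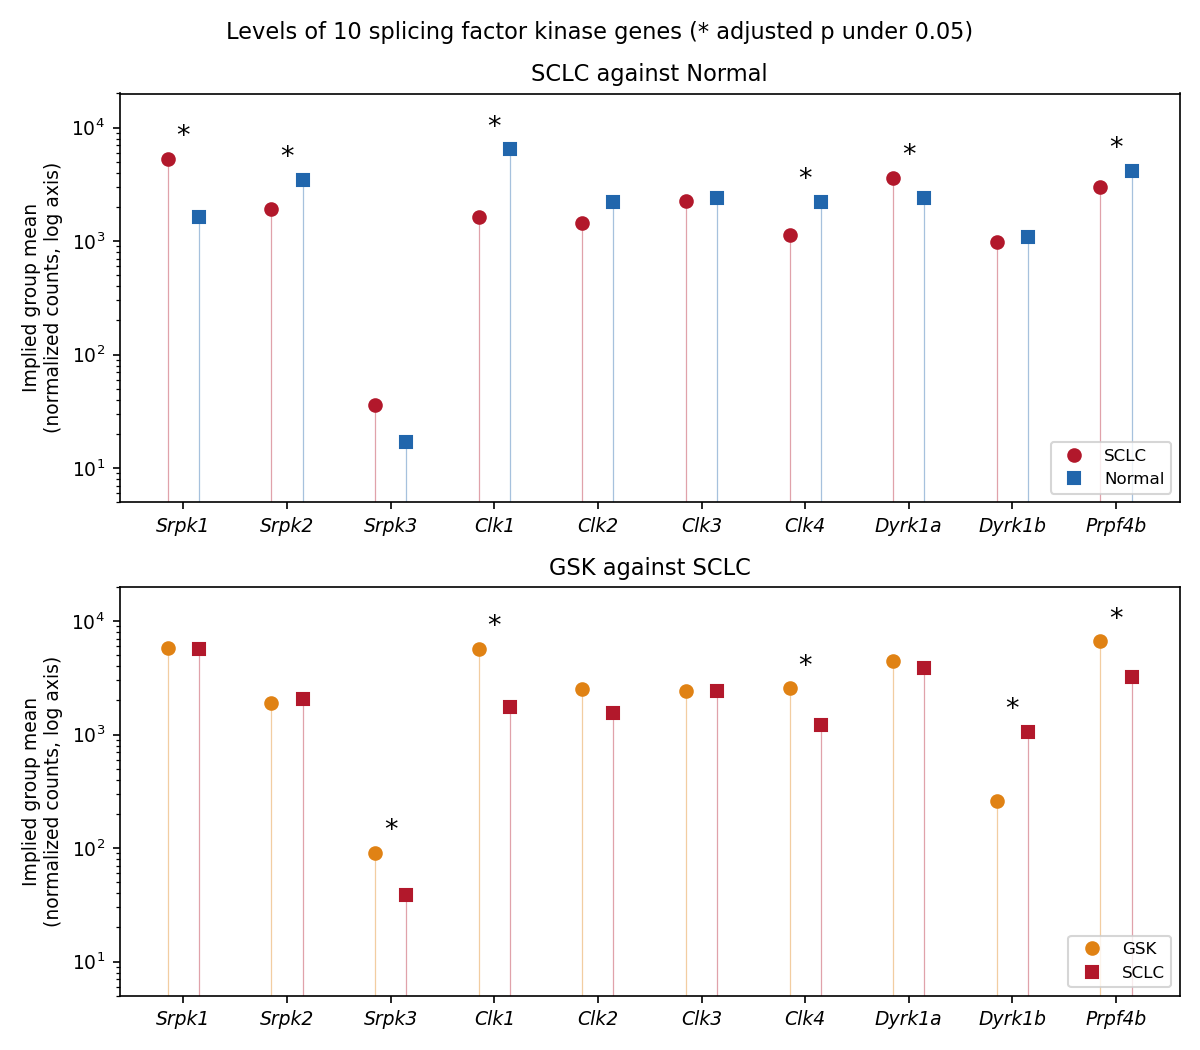
Implied group means in normalized counts (log axis) for each kinase gene in SCLC (circles) and Normal (squares) above, and in GSK (circles) and SCLC (squares) below; a star marks an adjusted p under 0.05. Clk1 stood at 1642 in SCLC and 6436 in Normal, and at 5702 in GSK and 1763 in SCLC, while Srpk1 stood at 5815 in GSK and 5739 in SCLC.

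Among the CLK genes, the members that passed were again Clk1 and Clk4. Clk1 averaged 5702 normalized counts in GSK and 1763 in SCLC, a 3.23-fold difference (log2 fold change 1.69 ± 0.30, adjusted p = 1.67e-07, from the authors' deposited table). With the length and GC trend removed, the log2 fold change of Clk1 was 1.06 and still passed (adjusted p = 0.00191). Clk4 averaged 2554 in GSK and 1224 in SCLC (1.06 ± 0.26, adjusted p = 0.000347, from the authors' deposited table). Its call ended when the length and GC trend of the longest transcripts was removed (0.49, adjusted p = 0.135), and held when coding transcripts were used for that trend (0.85, adjusted p = 0.00577), an alternative chosen after seeing the data. Clk2 averaged 2516 in GSK and 1537 in SCLC, with an interval of 0.04 to 1.38 that lay above no difference while its adjusted p was 0.0875 in the authors' deposited table. Clk2 passed under both other scalings, at 1.22 with equal totals (adjusted p = 0.00157) and 0.96 centred on the median (adjusted p = 0.0166). It also passed with the length and GC trend removed (0.94, adjusted p = 0.0193) and with that of coding transcripts (1.05, adjusted p = 0.00804). Clk3 averaged 2436 in GSK and 2406 in SCLC, with an interval of -0.62 to 0.66 (adjusted p = 0.975, from the authors' deposited table).

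Per kb of the longest coding transcript, Clk1 ranked above all other kinases in GSK, at 3175 normalized counts per kb, and second in SCLC, at 982. These ranks and the shares below rest on the coding length of Clk1 (1796 bases), where its longest transcript has 4865. It made up 47.9% of the summed CLK level in GSK and 29.9% in SCLC. Clk3 made up 14.7% in GSK and 29.3% in SCLC. The CLK genes together held 66.7% of the summed kinase level per kb in GSK and 51.7% in SCLC.

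Srpk1 and Srpk2 did not pass. Srpk1 averaged 5815 normalized counts in GSK and 5739 in SCLC. As scaled in the authors' deposited tables, its interval, -0.43 to 0.47, bounds any difference at less than that of SCLC against Normal (1.70). Scaled to equal totals, Srpk1 had 0.53 with GSK (adjusted p = 0.0596), outside that interval, and did not pass. Srpk2 averaged 1918 in GSK and 2079 in SCLC, with an interval of -0.75 to 0.52 (adjusted p = 0.82, from the authors' deposited table). With the length and GC trend removed, Srpk2 had -0.75 (adjusted p = 0.0541), and with that of coding transcripts it passed as lower (-0.82, adjusted p = 0.0333). Srpk3 averaged 90.4 in GSK and 38.5 in SCLC (1.23 ± 0.48, adjusted p = 0.0314, from the authors' deposited table), so its rise rests on low counts. Srpk1 held 78.6% of the SRPK level per kb in GSK and 78.4% in SCLC, so the make-up of this family differed little between these groups.

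**Figure D2:**
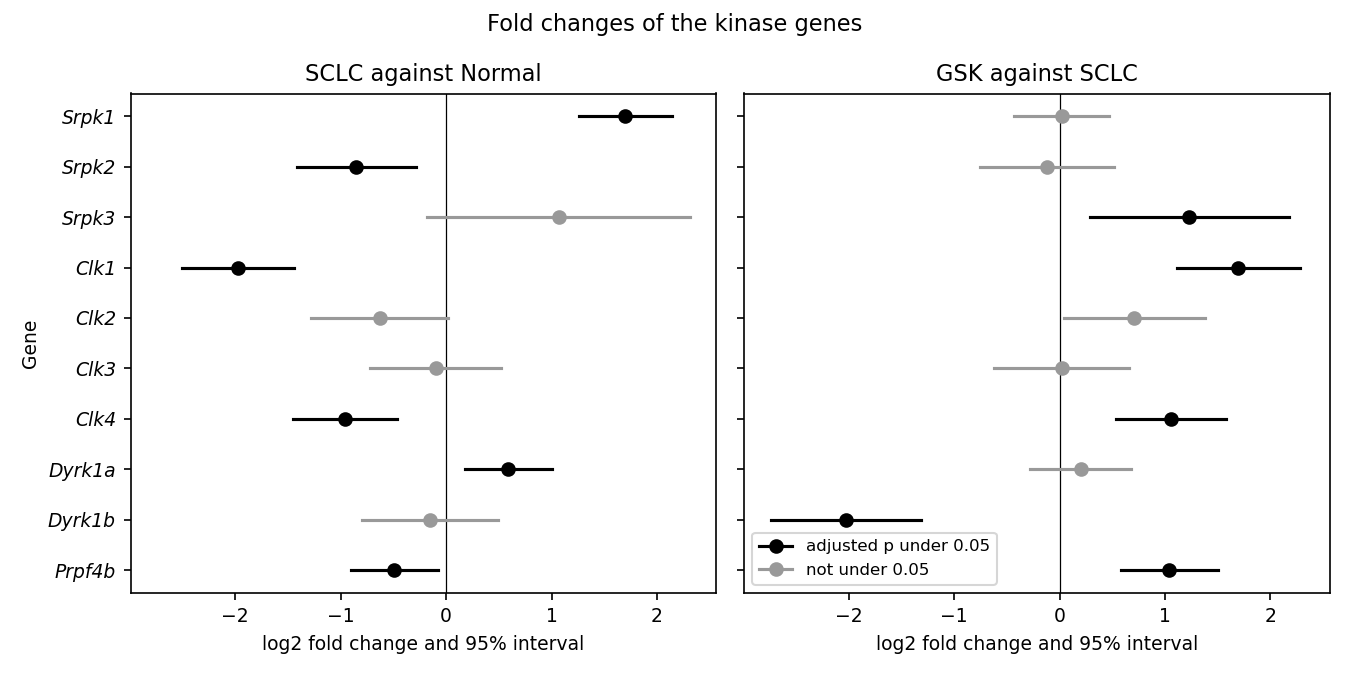
Log2 fold changes (points) with 95% intervals (bars) of each kinase gene, SCLC against Normal on the left and GSK against SCLC on the right, in black where the adjusted p was under 0.05. Clk1 lies at -1.97 on the left and 1.69 on the right, Dyrk1b at -0.15 on the left and -2.02 on the right.

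Dyrk1b was the only kinase that fell as deposited. It averaged 260 normalized counts in GSK and 1058 in SCLC, with a log2 fold change of -2.02 ± 0.37 (adjusted p = 3.29e-07, from the authors' deposited table). Its log2 fold change was -1.52 with equal totals, where Clk1 had 2.20, and -1.30 with the length and GC trend removed, and it passed in both. As deposited, it was the only kinase whose difference still passed a test of log2 fold changes beyond 1 (adjusted p = 0.0402). Its paralog Dyrk1a averaged 4431 in GSK and 3862 in SCLC, with an interval of -0.28 to 0.68 (adjusted p = 0.569, from the authors' deposited table); scaled to equal totals, Dyrk1a passed (0.70, adjusted p = 0.0135). Per kb, Dyrk1b made up 11.8% of the DYRK1 level in GSK and 38.4% in SCLC. Prpf4b averaged 6633 in GSK and 3223 in SCLC (1.04 ± 0.23, adjusted p = 5.64e-05, from the authors' deposited table), and this call ended with the length and GC trend removed (0.38, adjusted p = 0.195).

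**Figure D3:**
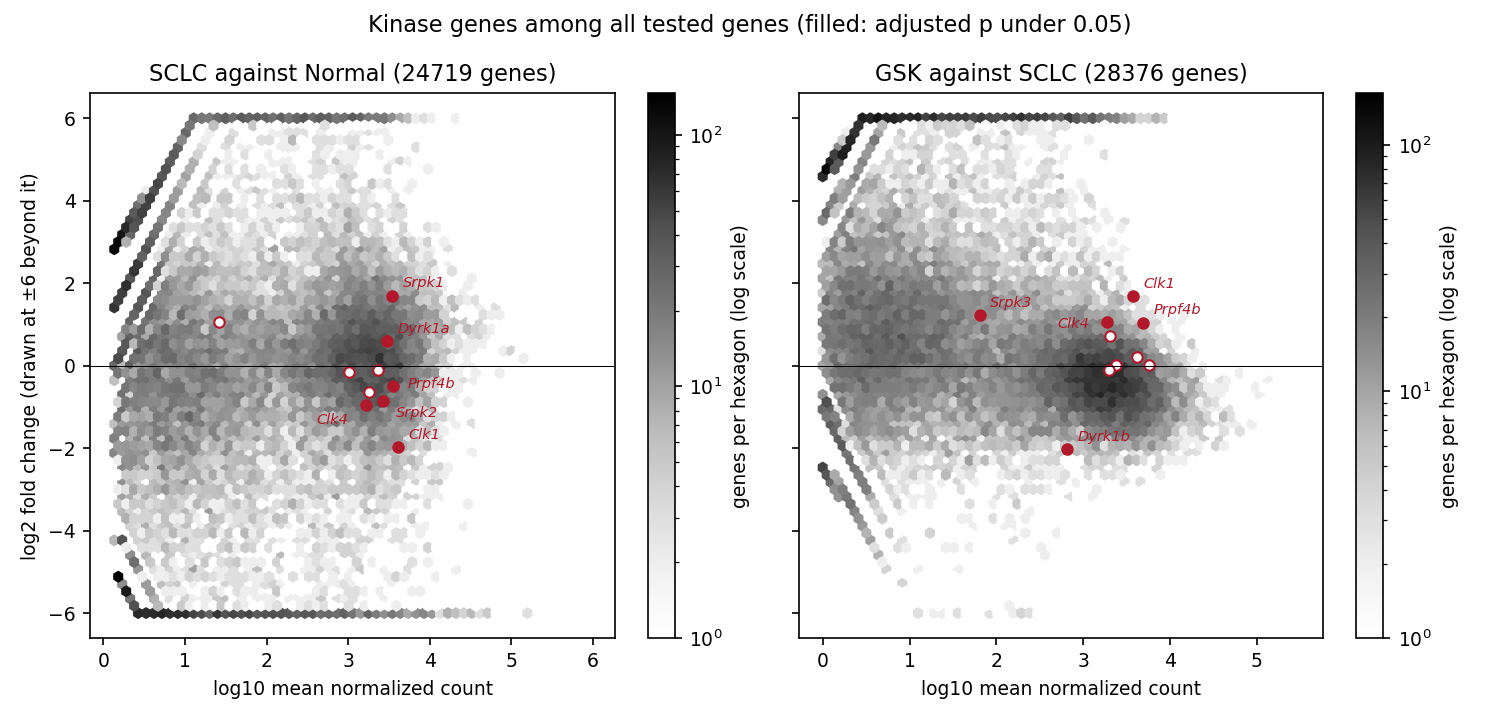
Log2 fold change against log10 mean normalized count for all genes with an adjusted p (grey hexagons, darker for more genes), with the kinase genes in red, filled where the adjusted p was under 0.05; 24719 genes are on the left (SCLC against Normal) and 28376 on the right (GSK against SCLC). On the right the abundant genes centre below 0, with Clk1, Clk4 and Prpf4b above them and Dyrk1b below.

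The comparisons share the SCLC libraries, so a low value in SCLC lowers 1 fold change and raises the other, and their values are set side by side without a test. The tables were also scaled separately. After the second was divided by the factor that equates SCLC in both (0.11 on the log2 scale), Clk1 stood at 5288 normalized counts in GSK, 1642 in SCLC and 6436 in Normal. Clk4 stood at 2369 in GSK, 1138 in SCLC and 2217 in Normal, and Prpf4b at 6151 in GSK, 2986 in SCLC and 4185 in Normal. For these 3 genes SCLC was the lowest group. It was also the lowest for Clk2, with 2333 in GSK, 1430 in SCLC and 2221 in Normal. Clk3 differed little, with 2259 in GSK, 2241 in SCLC and 2397 in Normal. Srpk1 had a different order, with 5393 in GSK, 5336 in SCLC and 1643 in Normal, and Dyrk1b another, with 241 in GSK, 981 in SCLC and 1093 in Normal. No p-value was computed for GSK against Normal.

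**Figure D4:**
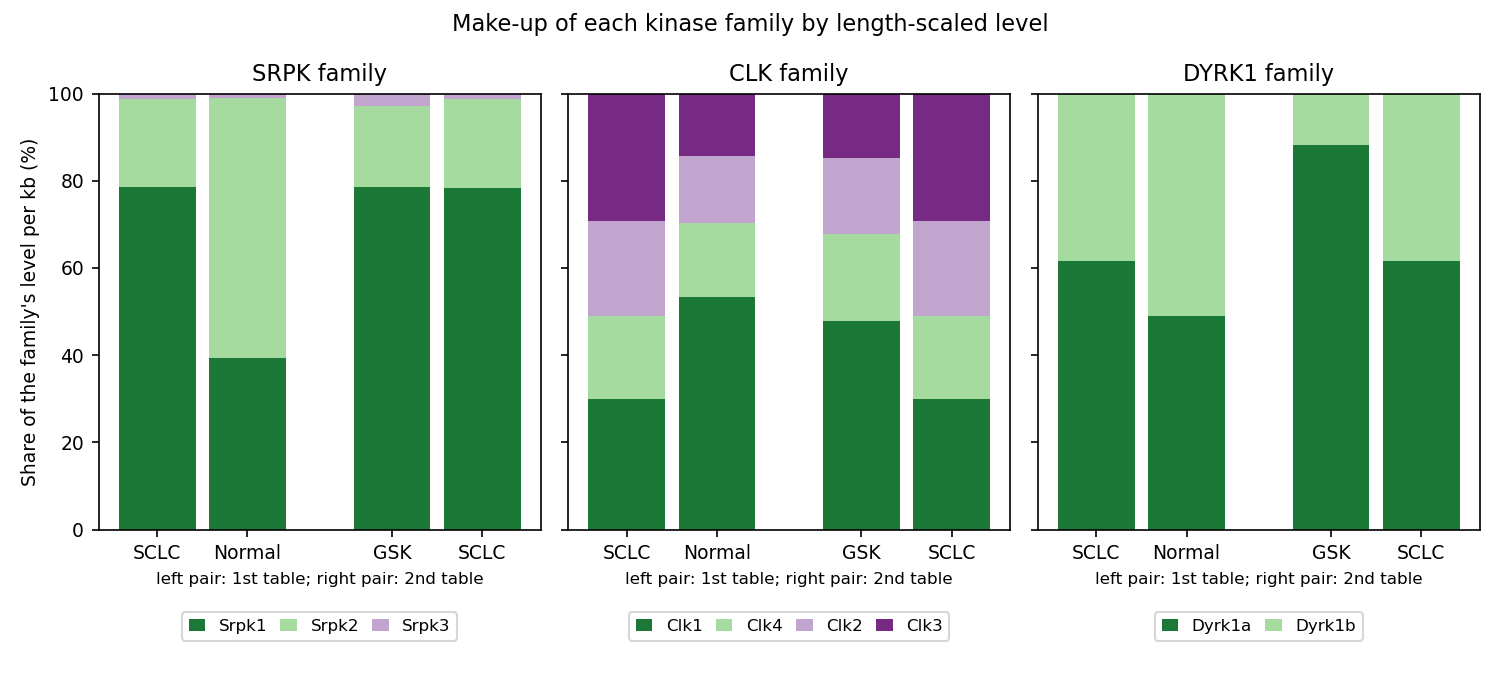
Share of each family's summed level per kb held by each gene, in SCLC and Normal (left pair of bars, first table) and in GSK and SCLC (right pair, second table), with no error since no library values were used. Srpk1 holds 78.5% in SCLC and 39.4% in Normal, Clk1 holds 47.9% in GSK and 29.9% in SCLC, and Dyrk1b holds 11.8% in GSK and 38.4% in SCLC.

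The kinase genes differ in how many unproductive transcripts are annotated. Of the transcripts in GENCODE M21, 7 of 13 for Clk1 and 7 of 14 for Clk4 were retained-intron forms, as were 6 of 13 for Srpk1, 3 of 4 for Srpk3, 4 of 11 for Clk2 and 4 of 9 for Clk3. Such forms were 3 of 10 for Srpk2, 2 of 10 for Prpf4b and 1 of 6 for Dyrk1a. Over 16272 protein-coding genes the medians were 4 transcripts and 1 retained-intron form, and 52.3% had at least 1 such form. Nonsense-mediated decay forms numbered 2 for Clk1, 3 each for Clk4 and Prpf4b, and 1 each for Srpk1, Srpk2, Clk2 and Clk3. Of those protein-coding genes, 25.4% had such a form. Dyrk1b had 3 transcripts, all coding. The longest transcripts of Clk1, Clk4 and Prpf4b were 39.2%, 38.8% and 40.8% G and C, and that of Dyrk1b was 62.8%. Gene counts do not separate spliced coding transcripts from retained-intron or decay forms, so a change in Clk1 or Clk4 here cannot be assigned to a particular form. Which annotated exons were counted is not given in the sources used here.

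Some counts could hold reads of overlapping genes. On the opposite strand, Srpk2 overlaps Kmt2e, Clk3 overlaps Edc3, Clk4 overlaps BC049762 and Prpf4b overlaps Gm36839. The library kit keeps strand, per the labels, but whether counting used it is not given in the sources used here. On the same strand, Srpk2 overlaps Gm24009 and Gm43566, Clk4 overlaps Gm25082, and Dyrk1a overlaps Gm15971. Srpk1, Srpk3, Clk1, Clk2 and Dyrk1b overlap no annotated gene.

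The SR proteins themselves are the substrates of SRPK and CLK kinases. Of 13 SR protein genes, 8 rose and 2 fell in SCLC against Normal, with a median of 0.89. There, 50.4% of all tested genes and 66.7% of abundant ones were called. The oncogenic SR protein gene Srsf1 rose by 1.18 ± 0.24 (adjusted p = 2.91e-06) and Srsf7 by 1.90 ± 0.27, in the authors' deposited table. Srsf2 (1.29 ± 0.22), Srsf3 (1.47 ± 0.28) and the scarce Srsf12 (3.11 ± 0.90; 71.6 normalized counts in SCLC and 8.30 in Normal) rose as well in the authors' deposited table. That table gave Srsf5 (-0.78 ± 0.23, adjusted p = 0.00149) and Srsf11 (-0.55 ± 0.22) as lower in SCLC. With GSK, 4 of 13 were called, where 37.1% of all tested genes were, and those that rose were Srsf10 (0.64 ± 0.25), Srsf11 (0.75 ± 0.23) and Tra2a (0.76 ± 0.31), while Srsf9 fell (-1.58 ± 0.33) in the authors' deposited table. Scaled to equal totals, Srsf5 also passed as higher and the list's median was 0.45, against -0.05 as deposited. As deposited, Srsf1 (-0.19 ± 0.30) and Srsf5 (0.21 ± 0.25) did not pass in the authors' deposited table.

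Of 15 genes of SR-related proteins of nuclear speckles, 4 rose and 2 fell in SCLC against Normal. There, 50.4% of all tested genes and 66.7% of abundant ones were called. Rnps1, a splicing activator of the exon junction complex, rose by 2.05 ± 0.22, Scaf1 by 1.11 ± 0.28, Srrm1 by 0.84 ± 0.20 and Thrap3 by 0.56 ± 0.18, in the authors' deposited table. Srrm2, a scaffold protein of speckles (-0.62 ± 0.27), and Luc7l3 (-0.67 ± 0.22) were lower in SCLC in the authors' deposited table. With GSK, 4 of 15 passed, where 37.1% of all genes did: Pnn (0.83 ± 0.27) and Luc7l3 (0.94 ± 0.27) rose, and Rnps1 (-1.06 ± 0.27) and Scaf1 (-1.68 ± 0.29) fell, in the authors' deposited table. Scaling to equal totals gave 8 higher and 1 lower in this comparison, so the split of this list rests on the scaling.

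Genes for proteins of the tri-snRNP, the particle on which PRPF4B acts, mostly had higher RNA levels in SCLC. In SCLC against Normal, 14 of 16 rose and the other 2 did not pass, with a median of 1.20, where 25.3% of all genes and 38.0% of abundant ones rose. Prpf31, a U4/U6 protein, rose by 1.86 ± 0.26, and Prpf6, a bridge between U5 and U4/U6 and a substrate of PRPF4B, by 0.62 ± 0.20, in the authors' deposited table. The U5 protein genes Eftud2 (1.91 ± 0.22) and Snrnp40 (2.06 ± 0.24) rose as well in the authors' deposited table. With GSK, 9 of 16 fell and the other 7 did not pass, with a median of -0.78, where 15.5% of all genes and 33.7% of abundant ones fell. Prpf31 had -1.62 ± 0.28, Snrnp40 -1.04 ± 0.28 and Prpf6 -0.88 ± 0.24 in the authors' deposited table. Ppih, a cyclophilin of the particle, had 2.29 ± 0.31 in SCLC against Normal and -1.40 ± 0.33 in GSK against SCLC in the authors' deposited tables. Snu13, which binds U4 RNA, had 1.99 ± 0.27 in SCLC against Normal and -1.38 ± 0.34 in GSK against SCLC in those tables. Scaled to equal totals, 3 of the 9 calls with GSK were left (Prpf31, Ppih and Snu13) and the median was -0.27. Prpf4b, for comparison, had -0.49 ± 0.21 in SCLC against Normal and 1.04 ± 0.23 in GSK against SCLC, opposite in sign to these medians.

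**Figure D5:**
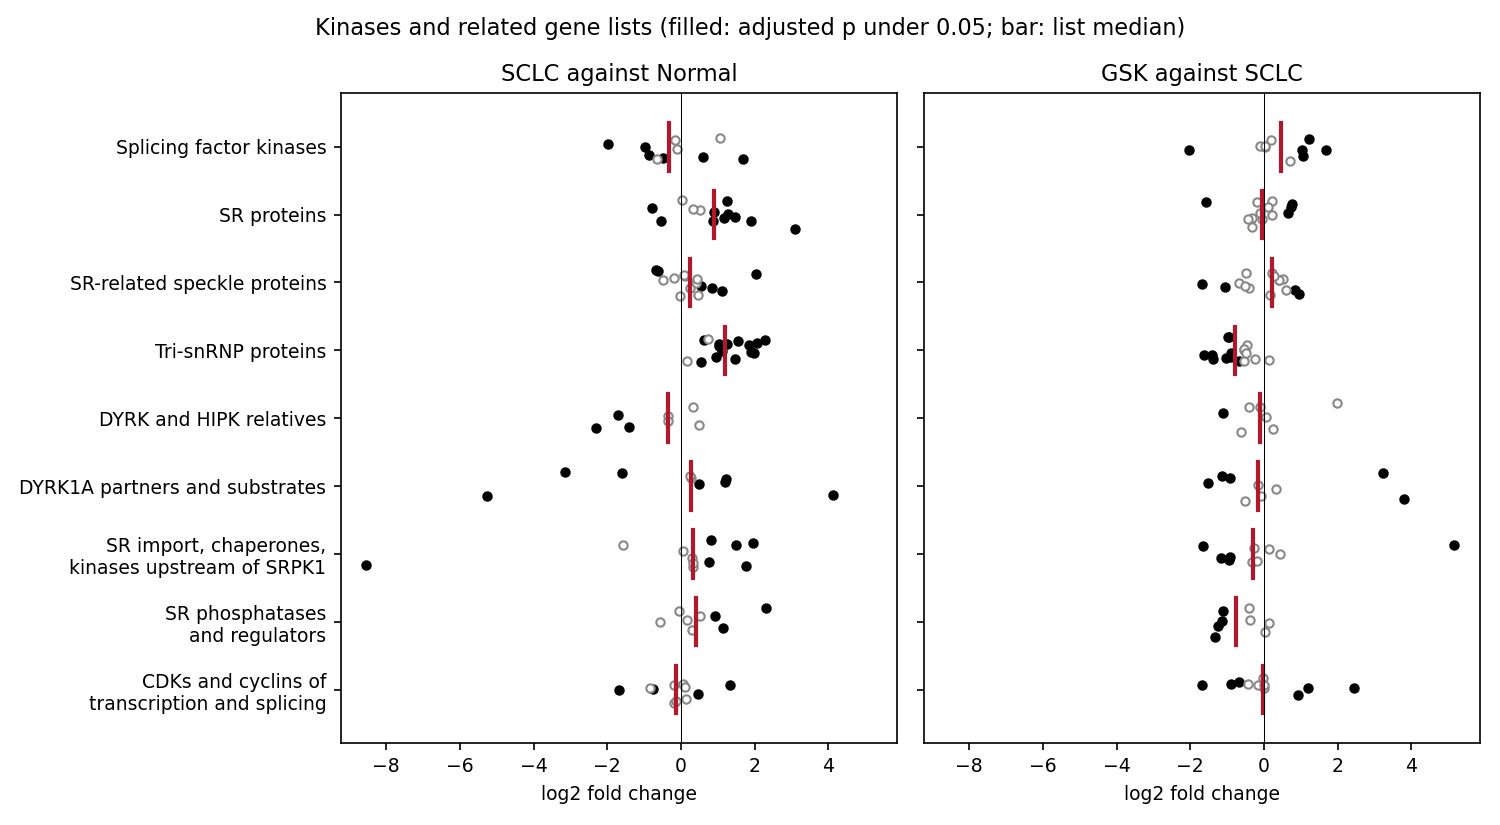
Log2 fold changes of the kinases and of 8 related gene lists, SCLC against Normal on the left and GSK against SCLC on the right; each point is a gene, filled where its adjusted p was under 0.05, and the red bar is the list's median. The median of the tri-snRNP proteins is 1.20 on the left and -0.78 on the right, and that of the kinases is -0.32 on the left and 0.45 on the right.

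Phosphatases that act on SR proteins, with their regulators, gave 3 of 8 genes higher in SCLC than in Normal. Of all genes 25.3% were higher, and of abundant ones 38.0%, so this count lies near the background. Ppp1ca, a catalytic subunit of protein phosphatase 1, rose by 1.16 ± 0.22, and its nuclear regulators Ppp1r8 by 2.33 ± 0.25 and Ppp1r10 by 0.92 ± 0.23, in the authors' deposited table. Lower in GSK than in SCLC were Ppp1ca (-1.14 ± 0.24), Ppp1r8 (-1.11 ± 0.28), Ppp2cb (-1.34 ± 0.33) and Ppm1g (-1.24 ± 0.32), in the authors' deposited table, and the other 4 did not pass; 15.5% of all genes and 33.7% of abundant ones were lower. With equal totals 2 of these calls were left (Ppp1ca and Ppp2cb), and Ppp1cc passed as higher.

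Of 11 genes that import SR proteins, fold SRPK1 or signal to it, 5 rose and 1 fell in SCLC against Normal. There, 50.4% of all genes and 66.7% of abundant ones were called. Tnpo3, the importin of SR proteins, did not pass in SCLC against Normal (0.05 ± 0.23) or in GSK against SCLC (-0.32 ± 0.25). The chaperone genes Hsp90ab1 (1.50 ± 0.20) and Ahsa1 (1.76 ± 0.21) rose in SCLC, as did Tnpo1 (0.82 ± 0.21) and Akt2 (0.76 ± 0.21), in the authors' deposited table, where Akt1 (0.33 ± 0.20) did not pass. Egfr, whose signal reaches SRPK1 through AKT in human cells, averaged 2.12 normalized counts in SCLC and 788 in Normal, and fell (-8.54 ± 1.98) in the authors' deposited table. With GSK, 5 of the 10 tested were called, where 37.1% of all genes and 47.5% of abundant ones were. Akt1 (-1.16 ± 0.22), Akt2 (-1.67 ± 0.24), Hsp90ab1 (-0.93 ± 0.28) and Ahsa1 (-0.94 ± 0.27) fell in the authors' deposited table. Egfr rose there (5.17 ± 1.12, with 79.4 in GSK and 2.20 in SCLC). With equal totals the calls of Hsp90ab1 and Ahsa1 ended, Tnpo1 passed as higher, and the list's median was 0.21, against -0.30 as deposited. Hsp90aa1 had no adjusted p with GSK.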

How the data were processed

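Libraries were aligned with STAR 2.7.9a to GRCm39, per the submitters' processing notes; the counting tool and annotation release were not named there. The column names are those that DESeq2 writes, per the file headers. Per the same headers, the authors deposited for each comparison of 3 libraries against 3 a mean of normalized counts (the signal column), a log2 fold change with its standard error, a test statistic (the score column), and a p-value with its adjusted p-value. The score equalled fold change over standard error to within 8.9e-08. An adjusted p was given for 24719 and 28376 of 57010 genes.

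Group means were implied from mean and fold change. The second table's control matched SCLC of the first: across 13634 genes averaging 50 or more in each table, their log2 ratio was 0.109 at the median with an SD of 0.0084, so it was taken as the SCLC group. Levels per kb used the longest coding transcript of GENCODE M21 (GRCm38). Symbols came from the tables (33116) or from that reference (19973).

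Calls took the authors' adjusted p under 0.05, adjusted over all genes. The kinases and the 8 lists (90 genes) were chosen with earlier results of these data known. Named were all kinases and, per list, the 4 largest changes among genes that passed, every gene of a direction with 5 or fewer, and 10 genes named in any case. Abundance classes and the motifs were chosen after values were seen. Results were recomputed under 8 other settings and 1 added after seeing the data, each with p-values from a normal statistic and Benjamini-Hochberg adjustment; the procedures were tested on simulated data (Python 3.11.15, scipy 1.17.1, statsmodels 0.14.6). Implied levels carry no depth per library, so no counting intervals are given. A gene that the naming rule covers is counted but not reported here by name.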

Additional observations from a re-analysis of the deposited data

How the results depend on the processing

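Over 9 other settings, 1 of them (the trend of coding transcripts) chosen after seeing the data, the 10 kinases gave 68 of 90 unchanged calls in SCLC against Normal (17 lost, 5 gained) and 67 of 90 in GSK against SCLC (11 lost, 6 gained, 6 changed sign). Clk1 and Srpk1 in SCLC against Normal and Dyrk1b in GSK against SCLC passed under all 9. Signs changed only for kinases that had not passed: in GSK against SCLC, Srpk2 had 0.39 with equal totals and 0.13 centred on the median of abundant genes (mean 100 or more), and Srpk1 and Dyrk1a had -0.34 and -0.06 with the length and GC trend removed, and -0.21 and -0.09 with that of coding transcripts. The log2 ratio of implied totals, which equal totals subtract, was -0.09 in the first table and -0.51 in the second, so that scaling raises every fold change; the median subtracted by centring was 0.18 in the first and -0.25 in the second.

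In SCLC against Normal, 1 kinase was higher when centred on the median, at an adjusted p under 0.01, and for changes above 0.5 or 1, and 1 was lower for changes above 0.5 or 1. In GSK against SCLC, 1 kinase was higher for changes above 0.5 and 0 for changes above 1 (1 at an unadjusted p under 0.05; normal statistic from the authors' standard errors), and 2 (Dyrk1b and Srpk2) were lower with the coding trend removed. Over all genes, changes above 1 left 2949 higher and 3391 lower of 6252 and 6201 in SCLC against Normal, and 3161 and 563 of 6129 and 4404 in GSK against SCLC. There, equal totals gave 8738 higher and 1970 lower, the median 7242 and 3077, changes above 0.5 left 1742 lower, and genes with a mean of at least 50 gave 3422 higher. Apart from the alternatives that test fewer genes or a larger change, the cause was not tested. No paired analysis was possible because the tables hold no value per library; leaving out replicates and other count tools were not run for the same reason, and depth per library is unknown.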

Other observations

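The values of DYRK relatives and partners follow, beside shares of 50.4% of all genes called in SCLC against Normal and 37.1% in GSK against SCLC. Of 7 DYRK and HIPK relatives, Hipk2 (-1.70 ± 0.29, adjusted p = 3.64e-08), Hipk3 (-1.41 ± 0.31) and Hipk4 (-2.31 ± 0.50) fell in SCLC against Normal, and the other 4 did not pass, in the authors' deposited table. With GSK, Dyrk2 was lower than in SCLC (-1.11 ± 0.25, adjusted p = 6.86e-05) in the authors' deposited table and the other 6 did not pass. Dcaf7, a scaffold that binds DYRK1A and DYRK1B, rose by 1.24 ± 0.32 in SCLC against Normal and had -1.52 ± 0.32 in GSK against SCLC (adjusted p = 2.16e-05), as the authors' deposited tables give it. Lin52, the DREAM subunit that DYRK1A phosphorylates, did not pass in SCLC against Normal (0.27 ± 0.28) or in GSK against SCLC (-0.08 ± 0.30). Of the other DYRK1A partners and substrates, Nfatc2 rose by 4.12 ± 0.32, Fam53c by 1.19 ± 0.31 and Rcan1 by 0.51 ± 0.22 in SCLC, and Nfatc1 (-1.59 ± 0.57), Nfatc4 (-5.26 ± 0.73) and Spry2 (-3.15 ± 0.35) fell, in the authors' deposited table. With GSK, Nfatc1 (3.24 ± 0.58) and Nfatc4 (3.81 ± 0.66) rose, and Rcan1 (-0.92 ± 0.26) and Fam53c (-1.14 ± 0.32) fell, in the authors' deposited table.

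A list of 11 genes held CDK kinases and cyclins of transcription and splicing, and Pskh1, which is neither. Of these 11, 2 rose and 2 fell in SCLC against Normal, where 50.4% of all tested genes and 66.7% of abundant ones were called. Ccnl1, a cyclin that partners CDK11 in nuclear speckles, fell (-0.75 ± 0.24), as did Ccnt2 (-1.69 ± 0.21), while Ccnk rose by 1.32 ± 0.21 and Cdk11b by 0.47 ± 0.21, per the authors' deposited table. In GSK against SCLC, Ccnl1 rose by 2.45 ± 0.29, a larger fold change than that of any of the 10 splicing factor kinases, and its relative Ccnl2 rose by 1.20 ± 0.39 and Ccnt2 by 0.94 ± 0.23, in the authors' deposited table. Cdk7 (-0.69 ± 0.27), Cdk9 (-0.89 ± 0.26) and the speckle kinase gene Pskh1 (-1.69 ± 0.28) fell in that table, and Cdk11b did not pass (adjusted p = 0.997 in the authors' deposited table). Immune, endothelial and fibroblast markers were higher in GSK than in SCLC, as given for the kinases, and their part in these values was not tested. Scaled to equal totals, the calls of Cdk7, Cdk9, Rcan1 and Fam53c with GSK ended, and Dyrk4 and Hipk1 passed as higher.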
